A study of Mus musculus with 2 samples.

Results

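The miR-30 family was examined through its 6 mouse genes, Mir30a, Mir30b, Mir30c-1, Mir30c-2, Mir30d and Mir30e, chosen by name from 1973 annotated genes counted in small RNA libraries. All 6 were found in both libraries. The libraries (microRNA-seq, RNA under 30 nt) came from the neural tube of healthy mouse embryos of the strain B6NCrl at embryonic day 13.5, with males and females pooled. They form 1 group of 2 biological replicates, without a treatment, mutation or second tissue. The results are therefore levels and ratios within a library and differences between the libraries, and no test between conditions is possible. An exact two-sided sign-flip test of 2 libraries cannot give a p-value below 0.5, so ratios are set against the spread of both libraries.

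A microRNA gene is transcribed into a long primary RNA, from which a hairpin is cut and then trimmed to a short duplex of a 5p and a 3p strand. A strand loaded into Argonaute pairs with messenger RNAs mainly through its seed, bases 2 to 8 from the 5′ end, so that genes with the same seed are read as 1 family. MiR-30 is expressed in many tissues, and its members have been studied in kidney development, in epithelial to mesenchymal transition and in fat cell differentiation. The hairpin of miR-30a is also the scaffold of many short hairpin RNA vectors.

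RefSeq mature sequences (GRCm38.p6) were matched for 4 of the 6 members, Mir30a, Mir30c-1, Mir30c-2 and Mir30e, but not for Mir30b and Mir30d. They are shown because the seed defines the family and because the remaining bases decide whether a read can be given to 1 gene. The 5p strands are printed 5′ to 3′ with the seed in capitals. MiR-384-5p is added because its gene, Mir384 on chromosome X, was the only other gene of the RefSeq table with this seed.
miR-30a-5p: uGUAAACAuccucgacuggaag
miR-30e-5p: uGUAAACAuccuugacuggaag
miR-30c-5p: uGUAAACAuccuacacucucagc
miR-384-5p: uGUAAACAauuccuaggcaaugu

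MiR-30c-5p is encoded identically by Mir30c-1 and Mir30c-2. MiR-30a-5p and miR-30e-5p differed by a single substitution, C13U, with miR-30a-5p written first and positions counted from 1 at the 5′ end. Between miR-30a-5p and miR-30c-5p there were 5 substitutions, all beyond the seed.

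The 3p strands separate the genes in another way. They are printed with the bases in capitals at which the members of each pair differ, the first pair being miR-30a with miR-30e and the second the products of the Mir30c copies.
miR-30a-3p: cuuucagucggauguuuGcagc
miR-30e-3p: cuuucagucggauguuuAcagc
miR-30c-1-3p: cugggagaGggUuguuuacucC
miR-30c-2-3p: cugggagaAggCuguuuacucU

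MiR-30a-3p and miR-30e-3p differed by G18A and shared the seed UUUCAGU. The miR-30c 3p strands shared another seed, UGGGAGA, and differed by G9A, U12C and C22U. Mature products of Mir30a and Mir30e were found whole in no other hairpin of the table, which was not matched for Mir30b and Mir30d, while miR-30c-5p was found in 1 other hairpin, that of the other copy.

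The 6 genes lie in 3 genomic clusters (GENCODE M21, GRCm38, the assembly also called mm10). Mir30e (chromosome 4, 120772606 to 120772697, minus strand) and Mir30c-1 (120769534 to 120769622) lie in introns of Nfyc, which encodes a subunit of the CCAAT-binding factor NF-Y, with 2.98 kb between them. Mir30d (chromosome 15, 68341208 to 68341289, minus strand) lies in an exon of the long non-coding gene Gm20732. Its neighbour Mir30b (68337415 to 68337510) is 3.70 kb away and overlaps an exon of Gm26621 by 16 nt. Mir30a (chromosome 1, 23272269 to 23272339, plus strand) overlaps no annotated gene, and Mir30c-2 (23291701 to 23291784) lies 19.36 kb from it in an exon of the long non-coding gene Gm27028.

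Of the reads placed in a single gene, nearly all miR-30 counts fell on 3 of the 6 genes. Mir30e, Mir30a and Mir30d, 1 from each cluster, held 99.4% ± 0.11 (SD, n = 2) of the miR-30 counts, and Mir30b and both Mir30c copies together held 0.607% ± 0.11. These shares leave out reads that map to several places, a class with 24.5 times the family's counts in replicate 1 and 27.3 times in replicate 2, in which reads of the product shared by the Mir30c copies would fall. The family as a whole had 160131 counts in replicate 1 and 121373 in replicate 2, from totals of 7019469 and 5738209 same-strand counts on genes. Its share of all counts was 2.28% (Wilson 95% interval 2.27 to 2.29) in replicate 1 and 2.12% (2.10 to 2.13) in replicate 2, a mean of 2.20% ± 0.12. With the multimapping reads added to the total, the mean share was 1.40%. Levels below are given in CPM, counts scaled to a library total of 1000000 same-strand counts. They are not divided by gene length, since a read under 30 nt stands for 1 short RNA whatever the length of its hairpin. Intervals cover counting error only, since reads were not tagged by molecule and PCR copies count again. In tissue libraries such as these, fewer cells of a type and less RNA per cell cannot be told apart.

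Mir30e, whose product has been reported to repress the SUMO-conjugating enzyme UBC9 in human breast tumour cells, was the highest member. It had 85453 counts or 12174 CPM in replicate 1 and 66525 counts or 11593 CPM in replicate 2, with a mean of 11884 ± 410 CPM and rank 13 among all genes. It alone supplied 53.4% of the family counts in replicate 1 and 54.8% in replicate 2.

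Mir30a, the gene of the vector scaffold, followed with 43011 counts or 6127 CPM and 30464 counts or 5309 CPM, a mean of 5718 ± 579 CPM and rank 26. Mir30d had 30817 counts or 4390 CPM and 23555 counts or 4105 CPM, a mean of 4248 ± 202 CPM and rank 33. The values of Mir30e, Mir30a and Mir30d did not overlap: each value of Mir30e lay above both of Mir30a, and each of Mir30a above both of Mir30d. Mir30e exceeded Mir30a by a log2 ratio of 1.06 ± 0.096 (2.08-fold) and Mir30d by 1.48 ± 0.019 (2.80-fold), and Mir30a exceeded Mir30d by 0.43 ± 0.078 (1.34-fold). These ratios are larger than the SD of the 2 libraries, and they are ratios of counts rather than of molecules. Reads with a sequencing error at the single differing base could pass between Mir30a and Mir30e, so their split is uncertain by an amount that was not measured.

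The other members were far lower. Mir30b, whose product has been reported to target Sema3a in rat retinal neurons, had 457 counts or 65.1 CPM in replicate 1 and 415 counts or 72.3 CPM in replicate 2 (68.7 ± 5.10 CPM, rank 205). Mir30c-1 had 245 counts or 34.9 CPM and 260 counts or 45.3 CPM (40.1 ± 7.36 CPM, rank 237). Mir30c-2 had 148 counts or 21.1 CPM and 154 counts or 26.8 CPM (24.0 ± 4.07 CPM, rank 261). The product of both copies, miR-30c, is known in mouse liver as a repressor of Mttp, the microsomal triglyceride transfer protein. The order Mir30e, Mir30a, Mir30d, Mir30b, Mir30c-1, Mir30c-2 held in both libraries, and no neighbours in it overlapped.

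**Figure D1:**
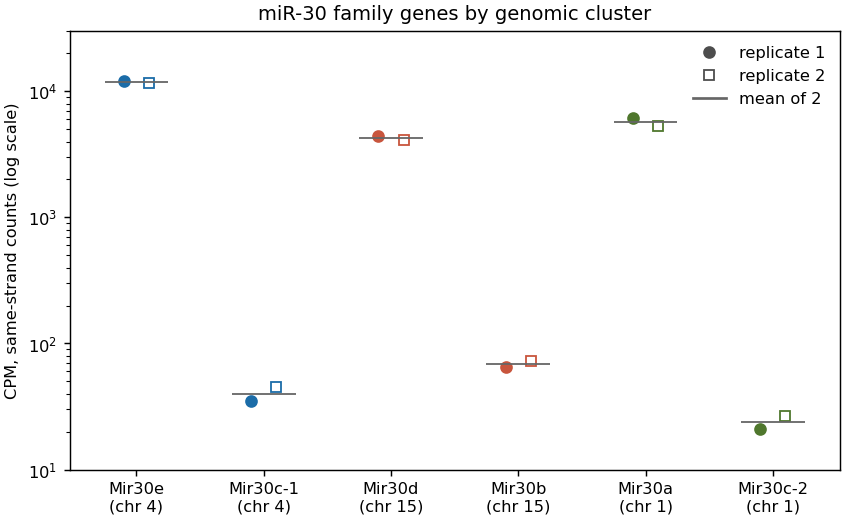
CPM (same-strand counts, log scale) of the 6 miR-30 genes, grouped and coloured by genomic cluster, with filled circles for replicate 1, open squares for replicate 2 and a line for their mean. In each cluster 1 gene is at 4105 CPM or more in both libraries and the other is at 72.3 CPM or less.

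Mir384, the gene outside the family with the miR-30 seed, had 1245 counts or 177 CPM in replicate 1 and 946 counts or 165 CPM in replicate 2. At 171 ± 8.84 CPM (rank 159) it lay between the high and the low members. Mir30d exceeded Mir384 by 24.8-fold (log2 ratio 4.63 ± 0.0060), and Mir384 exceeded Mir30b by 2.49-fold (1.32 ± 0.18).

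**Figure D2:**
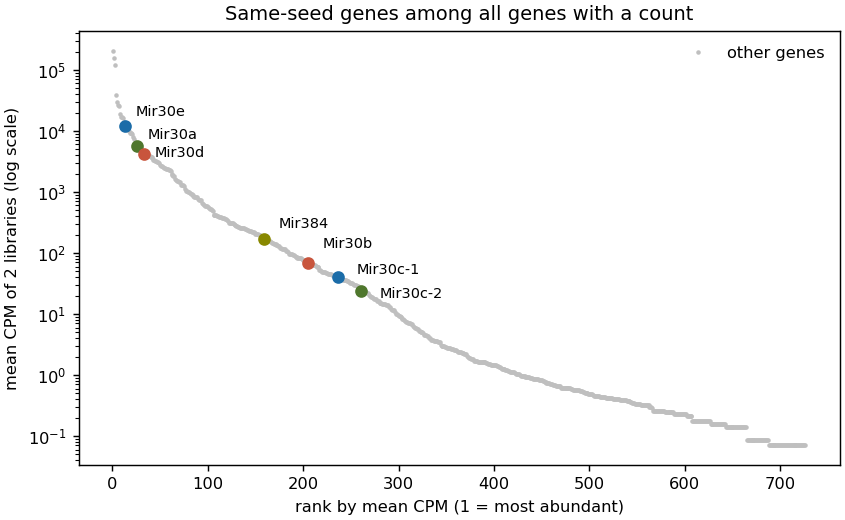
Mean CPM of 2 libraries (log scale) against rank for the 726 genes with a count, with the miR-30 genes and Mir384 coloured. Mir30e, Mir30a and Mir30d are at ranks 13, 26 and 33, and the remaining same-seed genes are at ranks 159 to 261.

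Genes nearest in level were taken by distance over the log2 CPM of both libraries, a likeness of level in 2 samples that says nothing of function or control. Nearest to Mir30e were Mir183 (distance 0.28) and Mir26b (0.33). Nearest to Mir30a were Mir127 (0.13) and Mir369 (0.22), and nearest to Mir30d were Mirlet7b (0.13) and Mir382 (0.16). Mir127, Mir369 and Mir382 are all of the imprinted Dlk1-Dio3 region. Mir33 and Mir488 were nearest to Mir30b, at 0.12 and 0.16. Mir129-2 and Mir450b lay nearest to Mir30c-1 (0.028 and 0.064), and Mir3061 and Mir31 to Mir30c-2 (0.18 and 0.22).

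By cluster, the Nfyc introns of chromosome 4 supplied most of the miR-30 counts placed in a single gene. Its members summed to 12209 CPM in replicate 1 and 11639 CPM in replicate 2 (11924 ± 403), or 54.3% ± 1.07 of the family. The chromosome 15 cluster summed to 4455 and 4177 CPM (4316 ± 197), or 19.6% ± 0.15. The chromosome 1 cluster summed to 6148 and 5336 CPM (5742 ± 575), or 26.1% ± 1.22. The clusters did not overlap in CPM.

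Replicates 1 and 2 gave log2 ratios of 1.45 and 1.48 for the chromosome 4 over the chromosome 15 cluster, averaging 1.47 ± 0.017 (2.76-fold). Chromosome 4 exceeded chromosome 1 by 0.99 and 1.13, a mean of 1.06 ± 0.096 (2.08-fold). The ratio of chromosome 15 to chromosome 1 was -0.46 and -0.35, a mean of -0.41 ± 0.079. All 3 ratios kept their sign in both libraries and exceeded their SD. They are close to those of the high members alone, because the low members add few counts placed in a single gene to any cluster. Multimapping reads of miR-30c-5p are in no cluster sum, and what they would add to chromosomes 4 and 1 was not tested.

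Within each cluster the neighbours were counted very unequally. Mir30e exceeded Mir30c-1 by log2 ratios of 8.446 and 7.999 in replicates 1 and 2, averaging 8.22 ± 0.32 or 299-fold. Mir30a exceeded Mir30c-2 by 8.18 and 7.63, a mean of 7.91 ± 0.39, or 240-fold. Mir30d exceeded Mir30b by 6.08 and 5.83, a mean of 5.95 ± 0.18, or 61.9-fold. The lower gene was thus a Mir30c copy on chromosomes 4 and 1 and Mir30b on chromosome 15.

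Such ratios were set beside those of all neighbouring miRNA genes on the same strand with at least 10 counts in each library. Within 50 kb there were 105 such pairs, with the miR-30 pairs among them and a median absolute log2 ratio of 2.73 (6.62-fold). Of the 105 pairs, 23.8% had an absolute log2 ratio over 5, a limit chosen after the values were seen, and so had all 3 miR-30 pairs. Ratios at least as large as that of Mir30e to Mir30c-1 were found in 6 pairs, at least as large as that of Mir30a to Mir30c-2 in 8, and at least as large as that of Mir30d to Mir30b in 19, each count including the pair itself. Within 10 kb, which leaves out the chromosome 1 pair, 24.5% of 94 pairs were over 5. Unequal counts of neighbours were thus common in these libraries, and the miR-30 pairs lay in the upper part of the range.

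**Figure D3:**
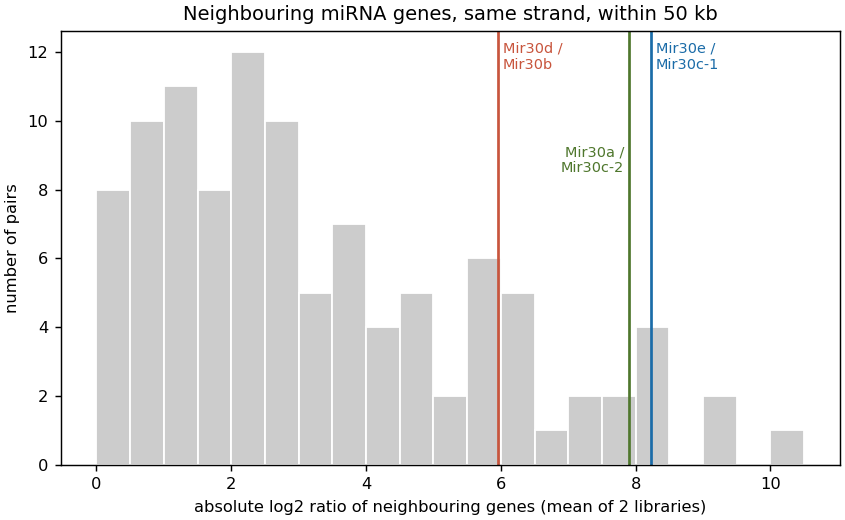
Number of pairs of neighbouring same-strand miRNA genes within 50 kb by absolute log2 ratio of their counts (mean of 2 libraries), with coloured lines at the miR-30 pairs. The miR-30 pairs are at 5.95, 7.91 and 8.22, against a median of 2.73.

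The Mir30c copies were compared directly because they encode the same 5p product. Mir30c-1 exceeded Mir30c-2 by a log2 ratio of 0.73 (exact 95% interval 0.43 to 1.03) in replicate 1 and by 0.76 (0.46 to 1.05) in replicate 2. The average was 0.74 ± 0.020, or 1.67-fold. Summed, the copies had 393 counts in replicate 1 and 414 in replicate 2, or 64.1 ± 11.4 CPM, which is 0.293% ± 0.068 of the family. The hairpins are shown because the stretch they share, in capitals, covers the whole of miR-30c-5p.
Mir30c-1: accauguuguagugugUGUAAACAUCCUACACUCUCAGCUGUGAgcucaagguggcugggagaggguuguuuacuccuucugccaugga
Mir30c-2: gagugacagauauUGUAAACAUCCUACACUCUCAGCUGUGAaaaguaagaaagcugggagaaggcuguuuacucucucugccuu

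The shared stretch was 28 nt long, whereas the longest stretch shared by the Mir30a and Mir30e hairpins was 18 nt and that between a Mir30c copy and Mir30a or Mir30e was 12 nt. A read of miR-30c-5p thus matches both genes equally. The Mir30a and Mir30e products each matched a single hairpin of the RefSeq table, in which Mir30b and Mir30d were not matched. In the deposited tables multimapping reads stand in a class of their own, outside every gene, with 3921182 reads in replicate 1 and 3310889 in replicate 2. How many of its reads are miR-30c-5p was not tested, so the counts of the Mir30c copies are not the level of miR-30c, and the copy ratio describes only reads that could be placed.

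Other families with products encoded more than once gave the setting for these values. The miR-30 share of 2.20% ± 0.12 compared with 1.96% ± 0.043 for the 6 miR-181 genes, 1.06% ± 0.12 for the 3 miR-26 genes and 0.0123% ± 0.0017 for the 4 miR-29 genes, all as shares of counts placed in genes. In counts placed in genes, the miR-30 family was higher than miR-181 in both libraries, at 2.28% and 2.12% against 1.99% and 1.93%. Products are shared by the miR-181a and miR-181b copies and by the Mir30c copies, so the families may lose unequal numbers of reads to multimapping. Their order with those reads included was not tested.

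Low counts of repeated products were not uniform across these families. The Mir30c copies at 40.1 and 24.0 CPM stood beside Mir26a-1 and Mir26a-2 at 2.66 ± 0.066 and 14.1 ± 0.76 CPM, and beside Mir29b-1 and Mir29b-2 at 0.902 ± 0.54 and 0.689 ± 0.23 CPM. The miR-181a copies, which share a 5p product in the way the Mir30c copies do, were at 3953 ± 224 CPM for Mir181a-1 and 269 ± 38.4 CPM for Mir181a-2. The miR-181b copies were at 14.7 ± 4.56 CPM for Mir181b-1, below both Mir30c copies, and 1520 ± 527 CPM for Mir181b-2. The members of these families without a shared product ranged from Mir26b at 10548 ± 1221 CPM, near Mir30e, to Mir29c at 60.0 ± 8.30 CPM, near Mir30b. Among these genes a shared mature product stood beside both high and low counts, and low counts stood beside both shared and unshared products. Each sharing gene here also encodes a product that it does not share, and gene counts do not show which product was counted. Whether reads of the shared products were lost was therefore not tested.

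**Figure D4:**
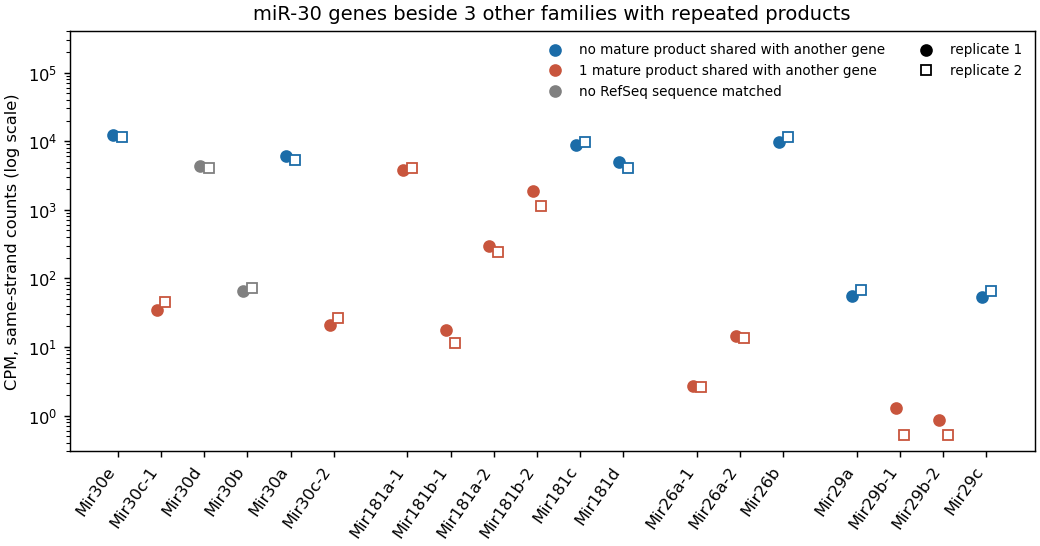
CPM (same-strand counts, log scale) of the genes of the miR-30, miR-181, miR-26 and miR-29 families in replicate 1 (filled circles) and replicate 2 (open squares), coloured by whether a RefSeq mature product is also encoded by another gene. The Mir30c copies lie between 21.1 and 45.3 CPM, while the miR-181 copies, which also share products, have means from 14.7 to 3953 CPM.

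The antisense strand of Mir30e carries another annotated gene of the same name series, Mir30f, which was not analysed as a gene of its own. Its product is printed with bases 2 to 8 in capitals because they are offset by 1 base from the family seed.
miR-30f: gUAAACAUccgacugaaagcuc

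Reads from it that map only there would fall in the opposite-strand counts of Mir30e. Those counts were 0 in both libraries, which allows up to 3 counts, or 0.427 CPM in replicate 1 and 0.523 CPM in replicate 2. The other 5 members also had 0 opposite-strand counts in both libraries. Of all 1973 genes, only 53 had opposite-strand counts in replicate 1 and 45 in replicate 2, so their absence from the members is near that background.

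Differences between the libraries were given for each member. After TMM scaling, the log2 difference of replicate 2 from replicate 1 was -0.12 (exact 95% counting interval -0.14 to -0.11) for Mir30e, -0.15 (-0.18 to -0.13) for Mir30d and -0.26 (-0.28 to -0.24) for Mir30a. The low members went the other way, with 0.097 (-0.098 to 0.29) for Mir30b, 0.32 (0.065 to 0.58) for Mir30c-1 and 0.29 (-0.041 to 0.63) for Mir30c-2. Thus the 3 high members were lower in replicate 2 and the 3 low members had values above 0, of which only the interval of Mir30c-1 left out 0.

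No member differed by more than 0.5, against 9.48% of the 306 genes with at least 100 counts summed, and with 6 members a count of 0 is near that background. Counting intervals left out 0 for 4 of 6 members, near the 62.7% of all 306 genes. They lay below 0 for 3 members, against 32.7% of all genes, and above 0 for 1 member, against 30.1%. The median absolute difference was 0.21 for the members and 0.17 for all 306 genes. The biological coefficient of variation of these libraries, from an edgeR common dispersion over 371 genes, was 17.4%. With 1 library on each side, these differences have no replicate check.

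**Figure D5:**
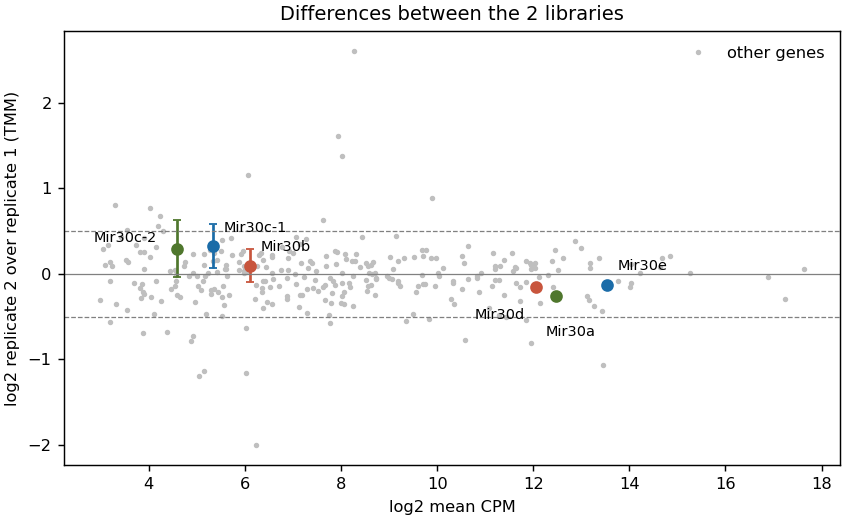
Log2 difference of replicate 2 from replicate 1 (TMM-scaled) against log2 mean CPM for genes with at least 100 counts summed, with the miR-30 genes coloured by cluster and bars for exact 95% counting intervals. All 6 members lie between the dashed lines at -0.5 and 0.5.

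Marker miRNAs described what the tissue samples held. Of the 8 neural markers, 7 were matched and 4 had at least 10 counts in each library. Their summed level was 7765 CPM in replicate 1 and 7929 CPM in replicate 2, most of it from Mir137 and Mir219a-2. Other neural markers had far lower counts placed in a single gene, with means of 394 CPM for Mir9-3, 3.52 CPM for Mir124a-2 and 1.69 CPM for Mir124a-1. Mir9 and Mir124a are listed as several copies, and reads that map to several places are in none of these values. What such reads would add was not tested, so these are not the levels of miR-9 or miR-124. The neural sum thus describes a few of its genes rather than the whole list. No matched marker was at 0 in both libraries. The endothelial marker Mir126a was at 16576 ± 789 CPM. Other lists were lower, with kidney epithelial markers at 108 CPM in replicate 1 and 106 CPM in replicate 2, erythroid markers at 62.8 and 35.6 CPM and the hepatic marker Mir122 at 118 and 30.7 CPM. Muscle markers were at 118 CPM in replicate 1 and 373 CPM in replicate 2, nearly all from Mir206. Multiciliated cell markers were at 386 and 951 CPM. Most of their difference was in Mir449a, at 84.1 and 532 CPM. Mir34c was at 289 and 403 CPM and Mir34b at 13.2 and 16.4 CPM. The erythroid, hepatic, muscle and multiciliated levels differed between the libraries by a larger factor than any miR-30 member, and their part in the miR-30 values was not tested.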

How the data were processed

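The deposited values are raw read counts for each gene. Per the file headers they were made by the authors with gene annotation M4 on mm10, and an aligner is not given in the sources used here. Same-strand counts were read from column 3, and CPM was scaled to its total over gene rows. Rows that name no gene were left out: in replicates 1 and 2 these were multimapping (28.5% and 31.0% of reads), unmapped (17.4% and 12.2%) and outside genes (2.95% and 3.10%).

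Gene IDs were matched without version to GENCODE M21, and 1894 of 1973 matched. Mir30a carries version 2 in the files and 3 in M21, so its coordinates may differ from those counted, while the other 5 members have the same version in both. Sequences come from RefSeq on GRCm38.p6, whose coordinates were the same as those of M21 for the 4 matched members. Whether a product is shared was judged within that table, which is not complete.

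Errors are the SD of 2 libraries. TMM factors and the common dispersion came from edgeR 4.0.16 (R 4.3.3), with DESeq2 1.42.0 size factors as an alternative. Differences used a pseudocount of 0.5. Shares have Wilson and ratios exact binomial 95% intervals (Python 3.11.15, scipy 1.17.1). The procedures were tested on simulated data. The 6 members, the comparison families, the marker lists and the rule for named genes (members, genes with the same seed, the 2 genes nearest each member in level, the comparison families and host genes) were chosen with earlier results of these data known. The labels name the libraries biological replicates with a shared donor entry for the strain.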

Additional observations from a re-analysis of the deposited data

Results flagged for a closer look

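The multimapping reads lie outside every gene count and were used in no comparison of levels. They numbered 3921182 in replicate 1 and 3310889 in replicate 2, and a read of miR-30c-5p would fall among them. Their makeup was not tested.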

How the results depend on the processing

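No result changed direction under any alternative run. The family share was 2.76% with Mir10a left out of the total and 1.40% with the multimapping reads added to it, as follows from the smaller and the larger total. Per base of the annotated gene, the log2 ratio of the chromosome 4 to the chromosome 15 cluster was 1.30, of chromosome 4 to chromosome 1 it was 0.68, of chromosome 15 to chromosome 1 it was -0.62, of Mir30d to Mir30b 6.18 and of Mir30c-1 to Mir30c-2 0.66. The median ratio of neighbouring pairs was 2.83 within 10 kb, 2.73 within 50 kb and 2.47 with at least 100 counts in each library. The count of genes past 0.5 between the libraries was 29 with at least 100 counts summed, 71 with at least 20 and 338 with at least 1, while 0 members passed it under every scaling, pseudocount and column tried. The coefficient of variation was 17.8% with at least 1 count in each library, 17.5% with at least 100, and 17.3% with DESeq2 size factors. Mir30e, Mir30d and Mir30a kept their sign, with log2 differences of -0.070, -0.097 and -0.21 under total counts. Leaving out either replicate moved no ratio or share by more than 1 SD, which is so by construction with 2 libraries. No paired analysis was possible because there is a single group. Depth limits Mir30c-2 most, with 148 and 154 counts.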

Other observations

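Across all 105 neighbouring pairs within 50 kb, the ratios were also split by shared mature products, a split made after the values were seen and given as a description. In 20 pairs just 1 gene shared a mature product with another gene of the RefSeq table, the chromosome 4 and chromosome 1 miR-30 pairs among them. The gene with the shared product was the lower in 17 of these 20, and their median absolute log2 ratio was 3.93. In the 75 pairs where neither gene shared a product it was 2.47, and in the 6 where both did it was 3.69. Pairs with ratios as large occurred without any sharing found, such as Mir544 and Mir382 at 9.11 and Mir487b and Mir539 at 8.41. Over the genes with any count, and only over those, the median level was higher in the classes with shared products. These medians compare different genes rather than neighbours, so they cannot be set against the pair split. The median was 46.9 CPM for 47 of the 53 genes that share some of their products. It was 2.57 CPM for 557 of the 829 genes that share none. For genes that share all their products it was 142 CPM, but only 9 of 34 had any count. Most genes of that class had no count and are left out of its median. Copies outside the table would be missed by both splits, as would shared products not found within it. Mirlet7a-2 was classed as sharing no product, although Mirlet7a-1 is of the same name series. Its pairs with Mir100 and Mir125b-1 may therefore be in the wrong class, and the counts above are approximate.

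The miR-30 partner ratios also moved between the libraries. The change was 0.55 for Mir30a to Mir30c-2, 0.45 for Mir30e to Mir30c-1 and 0.25 for Mir30d to Mir30b, with a median of 0.20 over the 105 pairs. Of the 105 pairs, 95 changed by no more than the first, 89 by no more than the second and 64 by no more than the third, each count including the pair itself. In all 3 clusters the ratio was the smaller in replicate 2. The median absolute log2 ratio of the 105 pairs was also smaller there, at 2.58 against 2.74 in replicate 1. The share of all pairs with a smaller ratio in replicate 2 was not counted, so the shared direction is no trait of the miR-30 pairs.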
